A study of Mus musculus with 14 samples.

Results

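The osteocyte genes Dmp1, Phex, Mepe, Sost, Pdpn and Fgf23 were followed through 14 bulk RNA-seq libraries, each made from a cultured clone that had grown from a single tdTomato+ cell of mouse femur bone marrow. The 6 genes were taken by name and by Ensembl identifier, without use of their values, from a count table of 30503 genes, and all 6 were in it. Clones came from Fgfr3-creER; R26R(tdTomato/+) mice at postnatal day 23 (Fgfr3-WT (P23), n = 5), from Fgfr3-creER; Trp53fl/fl; R26R(tdTomato/+) mice at postnatal day 28 (Fgfr3-p53 cKO (P28), n = 5) and from 4-month-old mice of the latter genotype (Fgfr3-p53 cKO (P4M), n = 4). All mice had received tamoxifen at postnatal day 21, which lets the Fgfr3-creER transgene, a P1-derived artificial chromosome line, switch on tdTomato in Fgfr3-expressing cells and, where the Trp53 alleles are floxed, delete p53 in the same cells. The clones were grown in basal medium without osteogenic induction and had reached passage 8 by the labels, or passage 6 to 8 at P4M. The paper's methods give passage 6 to 8 for the cKO clones of both ages. Each library is therefore a cell population descended from 1 labelled cell, and the labels do not say which clones shared a mouse, so the p values below measure the spread between clones. Total counts per clone ran from 25688946 to 38958693 in Fgfr3-WT, from 37606033 to 48648618 at P28 and from 43757832 to 52857424 at P4M. The sample titles of all Fgfr3-WT libraries hold the number 1303 and those of all cKO libraries 2963, and the labels do not say what it stands for. In every comparison with Fgfr3-WT, genotype, age, time since tamoxifen and whatever this number marks cannot be told apart, and there were no 4-month Fgfr3-WT clones. P4M and P28 share the number and the genotype. They differ in age, in time since tamoxifen and, by the labels, possibly in passage, which cannot be told apart either.

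Osteocytes are osteoblasts that have become buried in the matrix they made, and they speak to the bone surface and the kidney through the products of these genes. Pdpn (podoplanin, a mucin-like membrane glycoprotein) comes on early, as the embedding cell extends dendrites. Dmp1 (an acidic phosphoprotein of the mineralizing matrix), Phex (a membrane endopeptidase whose loss causes X-linked hypophosphatemia) and Mepe (a matrix phosphoglycoprotein) belong to the mineralizing stage, and Sost (sclerostin, a secreted WNT antagonist) marks the mature cell. Fgf23 encodes the hormone with which bone makes the kidney excrete phosphate, and loss of Dmp1 or Phex is known to raise it.

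The genes lie at separate loci of mm10 except for Dmp1 and Mepe, which are near each other on chromosome 5. By GENCODE M21, Dmp1 (ENSMUSG00000029307) spans chr5:104202613-104214102 on the plus strand and Mepe (ENSMUSG00000053863) chr5:104325329-104338611, also plus, 111 kb further on. Phex (ENSMUSG00000057457) takes up chrX:157162075-157415312 on the minus strand, Pdpn (ENSMUSG00000028583) chr4:143267431-143299564 on the minus strand, Sost (ENSMUSG00000001494) chr11:101962458-101967015 on the minus strand and Fgf23 (ENSMUSG00000000182) chr6:127072902-127081408 on the plus strand. Only Phex overlaps other annotated genes, namely 3 small ones within its introns that touch none of its exons. The kit does not keep the strand of the RNA, but no annotated antisense gene crosses an exon of any of the 6 genes.

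The 250 bases upstream of the RefSeq start site (GRCm38.p6, read 5′ to 3′ along each gene) are shown for Dmp1 and Phex, which followed each other through the clones, for Pdpn, which was high in other clones as well, and for Mepe, which was nearly silent. Capitals mark matches, on either strand, to the RUNX core TGTGGT, the TATA word TATAAA, the AP-1 word TGANTCA, the GC box GGGCGG and the homeodomain word TAATTA. The windows are chr5:104202367-104202616 for Dmp1, chrX:157415287-157415536 for Phex, chr4:143299565-143299814 for Pdpn and chr5:104325079-104325328 for Mepe.
Dmp1: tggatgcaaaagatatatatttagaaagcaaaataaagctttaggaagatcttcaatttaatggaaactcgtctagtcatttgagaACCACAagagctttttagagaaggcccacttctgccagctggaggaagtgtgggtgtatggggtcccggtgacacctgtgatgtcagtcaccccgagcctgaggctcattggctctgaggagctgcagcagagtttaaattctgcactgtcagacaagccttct
Phex: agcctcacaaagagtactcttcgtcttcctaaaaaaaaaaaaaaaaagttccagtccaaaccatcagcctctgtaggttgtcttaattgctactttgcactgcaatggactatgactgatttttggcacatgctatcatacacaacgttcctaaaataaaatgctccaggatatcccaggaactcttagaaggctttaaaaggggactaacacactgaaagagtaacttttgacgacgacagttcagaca
Pdpn: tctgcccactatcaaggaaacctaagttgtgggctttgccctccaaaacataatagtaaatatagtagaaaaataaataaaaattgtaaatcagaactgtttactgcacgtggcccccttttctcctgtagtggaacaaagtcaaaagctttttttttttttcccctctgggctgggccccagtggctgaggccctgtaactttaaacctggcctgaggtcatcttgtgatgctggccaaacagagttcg
Mepe: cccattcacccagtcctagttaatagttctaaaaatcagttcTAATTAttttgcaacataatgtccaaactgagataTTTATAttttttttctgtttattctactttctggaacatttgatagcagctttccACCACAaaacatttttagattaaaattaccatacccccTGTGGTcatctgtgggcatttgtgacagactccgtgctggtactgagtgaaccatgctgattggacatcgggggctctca
Dmp1 held a single RUNX core, from base -164 to -159 relative to the start site. Mepe held 2 of them, at -118 to -113 and at -80 to -75, as well as a TATA word and a homeodomain word, while none of the 5 words occurred in the Phex, Pdpn, Sost or Fgf23 windows. For comparison, among the same 250 bases of 32851 promoters, 14% held TGTGGT, 12.4% TATAAA, 6.75% TGANTCA, 32.7% GGGCGG and 4.84% TAATTA. CpG dinucleotides numbered 3 in Dmp1, 4 in Phex, 2 in Pdpn and 2 in Mepe, against a median of 6 over all promoters, and the G and C content of 45.6% in Dmp1, 39.2% in Phex, 43.2% in Pdpn and 38% in Mepe was below the median of 52.4%. The Sost and Fgf23 windows held 6 CpG each, with 61.2% G and C in Sost and 48.4% in Fgf23. The matches describe letters only.

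Deletion of Trp53 was visible in every cKO clone: its level was 49.9 to 68.1 CPM (counts scaled to a common library total, adjusted by TMM) in Fgfr3-WT and 1.72 to 2.84 CPM in the 9 cKO clones. Genes were tested with the quasi-likelihood F-test of edgeR in a single model of all 14 clones, with Benjamini-Hochberg adjustment over the 17358 genes that had enough counts, and called at an FDR of 0.05. Dmp1, Phex and Pdpn entered that test. Sost, Fgf23 and Mepe had too few counts in too few clones and did not pass the filter, so that 3 of the 6 genes were tested.

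**Figure D1:**
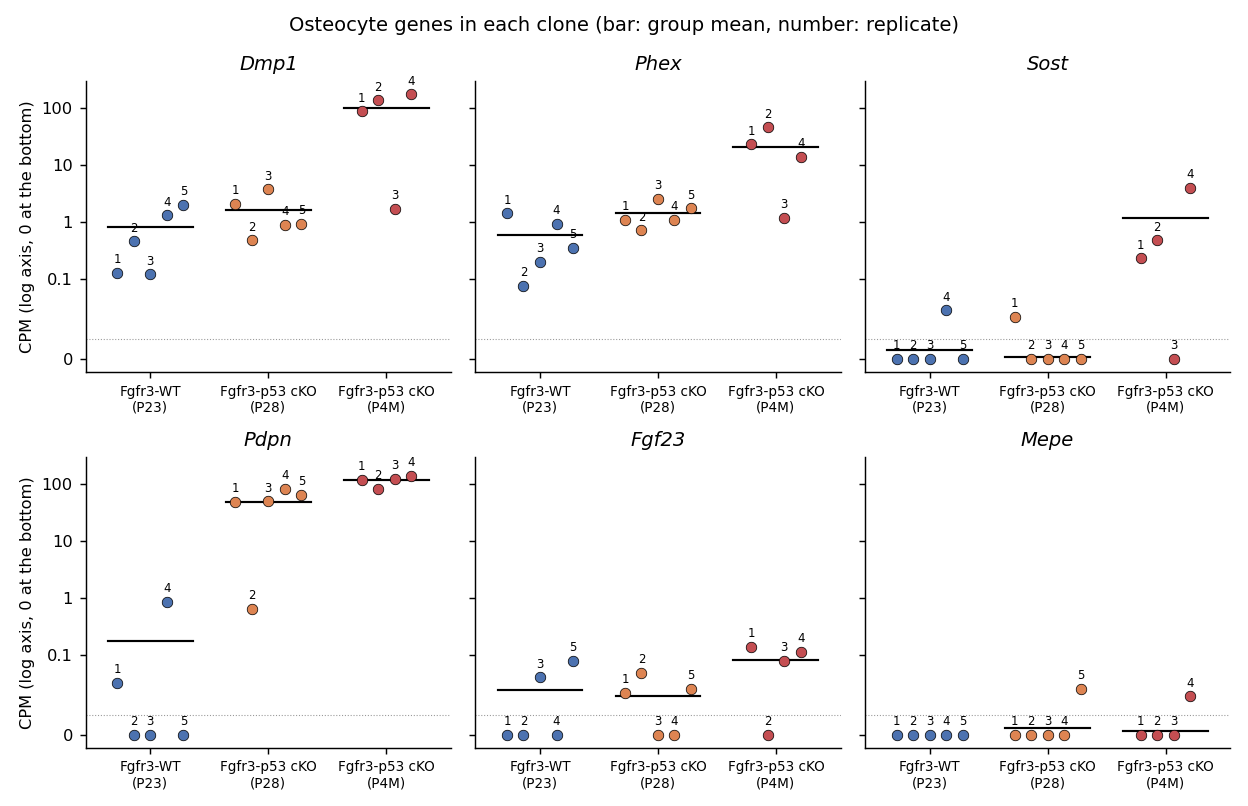
CPM of the 6 osteocyte genes in each clone (points, numbered by replicate) on a log axis with 0 at the bottom, with the group mean as a bar. Dmp1 and Phex were high in P4M replicates 1, 2 and 4 and low in replicate 3. Sost was above single counts only in P4M replicates 1, 2 and 4, with most of its counts in replicate 4. Pdpn was high in all 4 P4M clones and in 4 of the 5 P28 clones.

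Dmp1 was close to silent in Fgfr3-WT and P28 and abundant in 3 of the 4 P4M clones. Its level was 0.13, 0.459, 0.121, 1.31 and 2.02 CPM in Fgfr3-WT replicates 1 to 5, and 2.09, 0.478, 3.75, 0.886 and 0.922 CPM in the P28 replicates. The P4M replicates had 88.1, 137, 1.72 and 175 CPM. Replicates 1, 2 and 4 of P4M thus stood far above every other clone, and replicate 3 lay inside the ranges of both other groups. The means were 0.807 ± 0.831 CPM (SD, n = 5) in Fgfr3-WT, 1.62 ± 1.33 CPM (SD, n = 5) at P28 and 100 ± 74.8 CPM (SD, n = 4) at P4M. Dmp1 rose in P4M against P28 (log2 fold change 5.94, SE 1.13, adjusted p = 0.0113, edgeR) and against Fgfr3-WT (6.95, SE 1.19, adjusted p = 0.000564, edgeR). The value for P28 against Fgfr3-WT was 1.01 (SE 0.979, adjusted p = 0.439, edgeR), with a 95% interval from -0.91 to 2.93. With a single clone left out it ran from 0.42 to 1.64 and was never called. Both P4M calls held when any single clone was left out.

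Phex, the endopeptidase, followed the same division of clones at a lower level. Fgfr3-WT clones had 1.43, 0.0765, 0.202, 0.938 and 0.356 CPM and P28 clones 1.1, 0.717, 2.58, 1.09 and 1.74 CPM. The P4M clones had 23.2, 45.7, 1.18 and 14.1 CPM. Again P4M overlapped the other groups only through replicate 3, which sat among the P28 clones, while Fgfr3-WT and P28 overlapped each other. Means were 0.601 ± 0.57 CPM (SD, n = 5), 1.44 ± 0.735 CPM (SD, n = 5) and 21 ± 18.8 CPM (SD, n = 4) in the order Fgfr3-WT, P28 and P4M. Phex rose in P4M against Fgfr3-WT (log2 fold change 5.10, SE 0.946, adjusted p = 0.000935, edgeR). With a single clone left out that value ran from 4.4 to 5.7, still called. Without P4M replicate 2 the P4M mean was 12.8 CPM. The rise over P28 was 3.86 (SE 0.888, adjusted p = 0.0233, edgeR), but it missed the threshold without P28 replicate 1 (adjusted p = 0.0597, edgeR), P28 replicate 4 (0.0504), P4M replicate 1 (0.0526) or P4M replicate 2 (0.0708). P28 against Fgfr3-WT gave 1.24 (SE 0.817, adjusted p = 0.246, edgeR), with a 95% interval from -0.36 to 2.84. Because Phex is X-linked, the sex-linked transcripts were read beside it: Fgfr3-WT replicate 1 had 123 CPM of the Y-linked Ddx3y and 0.163 CPM of Xist, all other clones had at most 0.0231 CPM of Ddx3y, and Xist lay between 78.5 and 1080 CPM in them. That range includes P4M replicate 4, with the lowest Xist of them and 14.1 CPM of Phex. The part of sex in the Phex values was not tested.

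Sost, the marker of the mature osteocyte, was detected above single counts in 3 clones only, all of them P4M. Fgfr3-WT replicates 1 to 5 had 0, 0, 0, 1 and 0 counts and P28 replicates 1, 0, 0, 0 and 0. The P4M replicates had 10, 21, 0 and 211 counts, which were 0.231, 0.478, 0 and 3.96 CPM. These are the clones in which Dmp1 and Phex were high, and the clone without a Sost count is again replicate 3, where a count of 0 allows up to 0.0588 CPM. Replicate 4 alone supplied 87.2% of the 242 Sost counts of P4M. The ratio of summed counts per total count was 273 for P4M against P28, with an exact 95% counting interval from 48.5 to 10800, and 183 against Fgfr3-WT (32.5 to 7260). Fitted without the low-count filter over 29900 genes, P4M against P28 had an adjusted p of 0.0177 and P4M against Fgfr3-WT one of 0.00342 (edgeR). The former missed the threshold without P28 replicate 1 (0.0833), P28 replicate 3 (0.0571) or P4M replicate 4 (0.0611). Counting intervals and limits cover counting error only, since amplified reads are not independent molecules.

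Fgf23, the phosphate hormone gene, stayed at the edge of detection in every group. Its counts were 0, 0, 1, 0 and 2 in Fgfr3-WT, 1, 2, 0, 0 and 1 at P28, and 6, 0, 4 and 6 at P4M. The 3 highest counts were those of P4M clones, but the clones did not line up with Dmp1: replicate 2, with 6014 Dmp1 counts, had no Fgf23 count, and replicate 3 had 4. The ratio of summed counts was 4.51 for P4M against P28 (exact 95% counting interval 1.46 to 18.5) and 4.03 against Fgfr3-WT (1.15 to 21.6). Over clones, in the fit without the filter, the adjusted p values were 0.309 and 0.243 (edgeR), so that no difference beyond the spread between clones was detectable at this depth. Mepe was at the floor throughout, with 1 count in P28 replicate 5, 1 in P4M replicate 4 and none in the other 12 clones.

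Pdpn, the gene of the embedding osteocyte, was high in nearly all cKO clones at both ages and close to 0 in Fgfr3-WT. Fgfr3-WT clones had 0.0325, 0, 0, 0.853 and 0 CPM. P28 clones had 47.9, 0.645, 49.5, 81.7 and 64.3 CPM and P4M clones 119, 82.7, 121 and 138 CPM. P28 replicate 2 was the exception, below Fgfr3-WT replicate 4, and replicate 3 of P4M was as high as the others. Pdpn rose in P28 against Fgfr3-WT (log2 fold change 7.91, SE 1.26, adjusted p = 0.000477, edgeR) and in P4M against Fgfr3-WT (9.14, SE 1.33, adjusted p = 0.000196, edgeR). These sizes depend on Fgfr3-WT replicate 4, which holds 30 of the 31 Pdpn counts of its group, and without it they were 11.94 and 13.18, still called. In CPM every P4M clone lay above every P28 clone, by 82.7 to 81.7 at the nearest, whereas in TPM P4M replicate 2 (76.7) was below P28 replicate 4 (92.64). The difference did not pass (1.24, SE 0.934, adjusted p = 0.432, 95% interval -0.59 to 3.07, edgeR). Lymphatic endothelium also makes podoplanin, and 4 of the 5 endothelial markers listed were near 0: Cdh5 had no count in any clone, Pecam1 stayed at or below 0.287 CPM, Lyve1 at or below 1.05 CPM and Prox1 at or below 1.17 CPM. The 5 endothelial markers together summed to between 0.07 and 6.78 TPM (deposited values that also divide by gene length), with Flt4 the most abundant in all cKO clones. Flt4 itself was higher in P28 (log2 fold change 4.91, adjusted p = 0.00259, edgeR) and P4M (3.67, adjusted p = 0.00971, edgeR), with its highest value of 22 CPM in P28 replicate 4, where Pdpn was 81.7 CPM. Its part in the Pdpn values was not tested.

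**Figure D2:**
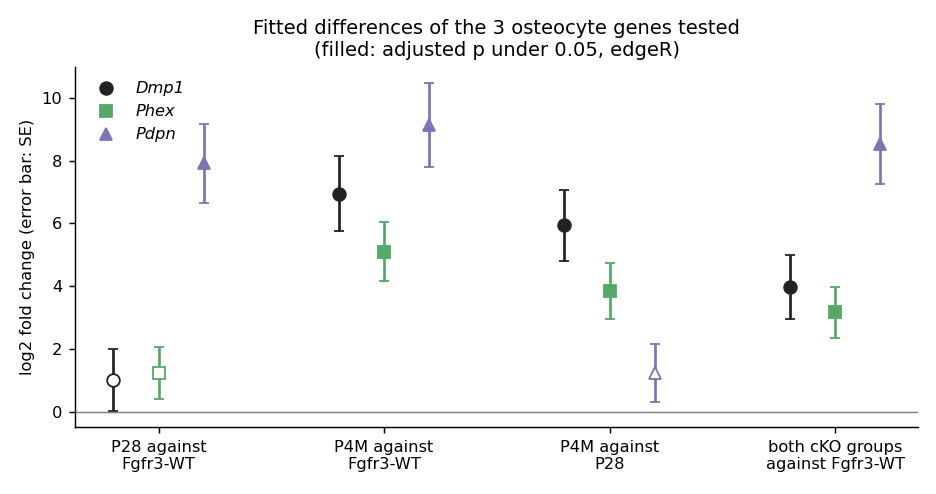
Fitted log2 fold changes of Dmp1, Phex and Pdpn in the 4 comparisons, with SE as error bars and filled symbols for an adjusted p under 0.05. Dmp1 and Phex were called in P4M and not in P28 against Fgfr3-WT, and Pdpn was called against Fgfr3-WT at both ages but not between them.

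Counted together, 3 of the 3 tested osteocyte genes were higher in P4M than in Fgfr3-WT, where 22.3% of all genes tested were called higher and 23.6% lower. In P28 against Fgfr3-WT it was 1 of 3, with 19.2% of all genes higher and 19.7% lower. Between P4M and P28, where 3.34% of all genes were higher and 3.88% lower, Dmp1 and Phex were called higher and Pdpn was not. With the cKO groups averaged and set against Fgfr3-WT, all 3 were higher, beside 23.1% and 25.7% of all genes higher and lower, and that comparison averages a low P28 and a high P4M for Dmp1 and Phex. The median log2 fold change of the 3 tested genes relative to Fgfr3-WT was 1.24 at P28 and 6.95 at P4M, and that of P4M relative to P28 was 3.86, where all genes had medians of -0.02, -0.06 and -0.01. The comparisons share their control clones. These counts and medians describe the 3 genes with enough counts and are no measure of the 6. Pdpn passed the filter only through the cKO clones, where it was high. Its being counted as higher than in Fgfr3-WT was therefore tied to its entry into the test.

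The low value of P4M replicate 3 was looked at over all genes that rose, a choice made after the values of Dmp1 and Phex were seen. Of the 580 genes called higher in P4M than in P28, 522 (90%) had every P4M clone above every P28 clone. That share was largely set by the selection, since the call used the same clones and favours genes without overlap. The shares given here therefore describe the called genes only and are no independent background for Dmp1 and Phex. Replicate 3 was at or below the highest P28 clone in 35 of the 580 (6.03%), and Dmp1 and Phex are among these 35. It was the lowest of the 4 P4M clones in 187 (32.2%), against 108, 162 and 123 for replicates 1, 2 and 4.

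On the TPM scale, which corrects for gene length, the order in P4M was Pdpn (111 ± 24.7 TPM), Dmp1 (56.6 ± 42.4), Phex (5.96 ± 5.22), Sost (0.92 ± 1.49), Fgf23 (0.075 ± 0.0557) and Mepe (0.005 ± 0.01; SD, n = 4 each). The ranges of neighbours in that order overlapped between clones. Within clones the order was steadier: Pdpn was above Dmp1, Dmp1 above Phex and Phex above Sost in each of the 4, narrowly so for Pdpn and Dmp1 in replicate 2 (76.7 and 75.23 TPM) and for Phex and Sost in replicate 4 (3.86 and 3.14 TPM). Sost and Fgf23 had no such order, since replicate 3 had Fgf23 counts and no Sost count. Proportions among the genes also differed between the high clones: Dmp1 was 7.31, 5.91 and 26 times Phex by TPM in P4M replicates 1, 2 and 4, so that replicate 4 had the most Dmp1 and Sost but the least Phex of the 3. At P28 the order was Pdpn (54.9 ± 34.4 TPM), Dmp1 (1.05 ± 0.878) and Phex (0.508 ± 0.296; SD, n = 5 each), with overlapping ranges, since Pdpn was 0.69 TPM in replicate 2, but in this order within each of the 5 clones.

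**Figure D3:**
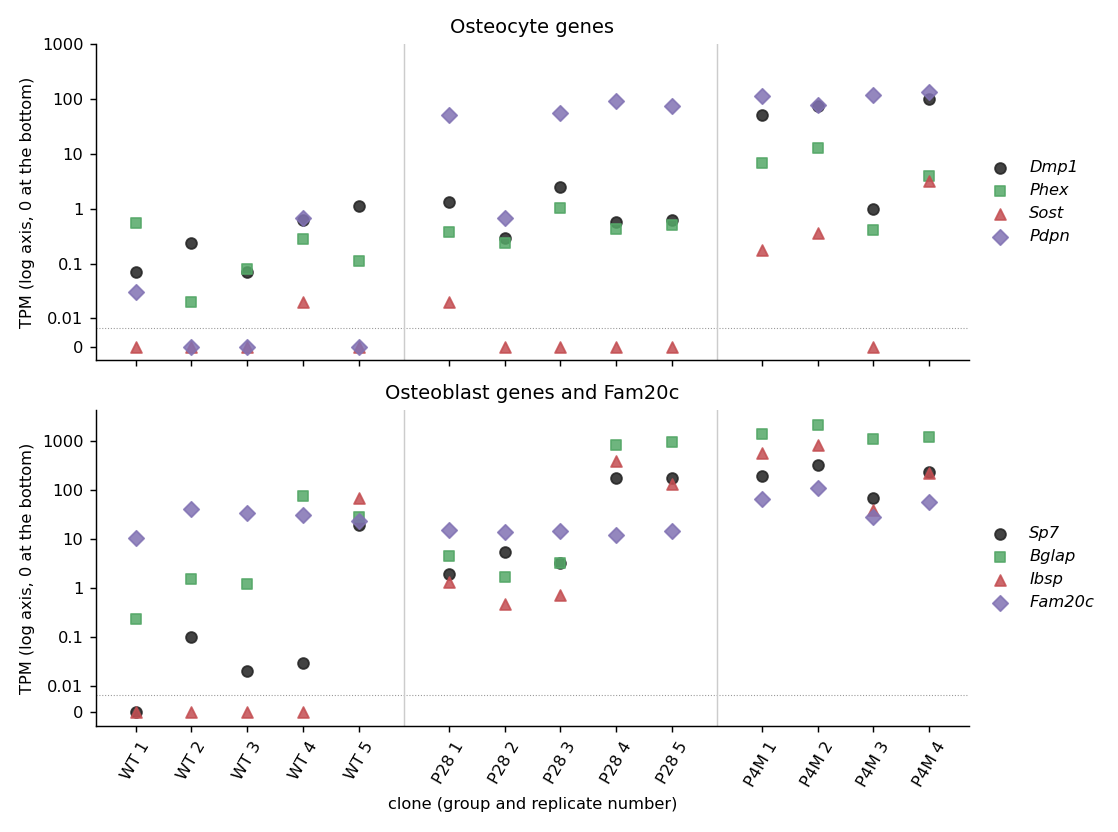
TPM by clone on a log axis with 0 at the bottom, for Dmp1, Phex, Sost and Pdpn (top) and for Sp7, Bglap, Ibsp and Fam20c (bottom). P28 replicates 4 and 5 and all P4M clones were high in Sp7 and Bglap. Only P4M replicates 1, 2 and 4 were high in Dmp1 and Phex. Sost was above single counts in these P4M replicates only, and mostly in replicate 4.

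High osteoblast genes did not always go with high Dmp1 and Phex. Sp7, the osterix gene needed for osteoblast formation, was 293 and 289 CPM in P28 replicates 4 and 5 but at most 9.77 CPM in replicates 1 to 3, and it was 381, 666, 132 and 441 CPM at P4M. In P28 replicates 4 and 5, with Bglap (osteocalcin) at 851.78 and 954.31 TPM, Dmp1 was 0.58 and 0.61 TPM, while P4M replicates 1, 2 and 4 had 1439.08, 2201.63 and 1223.37 TPM of Bglap and 50.14, 75.23 and 100.2 TPM of Dmp1. P4M replicate 3, with 1126.84 TPM of Bglap, had 0.97 TPM of Dmp1. Dmp1 was thus 0.0342 to 0.0819 of Bglap in the 3 high clones and 0.000639 to 0.000861 of it in the other 3 clones rich in Bglap. Over all 14 clones, log2 CPM of Dmp1 had a Pearson r of 0.7 with Sp7, 0.69 with Bglap and 0.77 with Runx2. Phex had 0.65, 0.66 and 0.74 with the same genes. Bglap and Bglap2 are near-identical neighbours whose reads may be split between them, so their single values are uncertain. Of the 10 osteoblast genes listed, all were tested: 7 were higher in P4M than in Fgfr3-WT (median of the 10, 4.32 in log2 fold change), where 22.3% of all genes were. With a clone left out the count was 5 to 8. At P28 it was 3 of 10, not far from the 19.2% of all genes, and between 2 and 6 with a clone left out, the 6 without Fgfr3-WT replicate 5.

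Among other genes that osteocytes express, 7 of the 9 listed were tested. In P4M against P28, Fam20c and Ptprz1 were higher and Kcnk2 lower, beside 3.34% and 3.88% of all genes. The 2 higher calls became 1 without P28 replicate 1 or 3 or P4M replicate 1 or 2. Fam20c, the Golgi kinase that phosphorylates secreted matrix proteins such as DMP1, had 119, 208, 51.3 and 102 CPM at P4M and 20.2 to 25.8 CPM at P28 (log2 fold change 2.37, SE 0.383, adjusted p = 0.00651, edgeR). It was lower at P28 than in Fgfr3-WT (-1.04, SE 0.357, adjusted p = 0.0346, edgeR), where the clones had 18.8 to 71.3 CPM. At P4M it was higher than in Fgfr3-WT (1.33, SE 0.375, adjusted p = 0.011, edgeR). Ptprz1, a receptor tyrosine phosphatase, had the clone pattern of Dmp1, with 48.8, 106, 0.869 and 24.5 CPM at P4M, 0.0717 to 3.68 CPM at P28 and at most 0.277 CPM in Fgfr3-WT (P4M against P28 5.21, SE 1.25, adjusted p = 0.0272, edgeR). It was also called at P28 over Fgfr3-WT (4.01, adjusted p = 0.036, edgeR). Kcnk2, a mechanosensitive potassium channel, went the other way, from 44.1 to 326 CPM at P28 to 11.4 to 24 CPM at P4M (-2.78, SE 0.696, adjusted p = 0.0311, edgeR), a call that was lost without P28 replicate 4 or any single P4M clone. Against Fgfr3-WT, Irx5 and Mmp14 were higher and Tnfrsf11b, the decoy receptor that restrains osteoclast formation, was lower at both ages. At P28 the list had 4 genes higher and 2 lower, beside 19.2% and 19.7% of all genes. The 4 became 2 without P28 replicate 4 or 5, and the 2 became 1 without Fgfr3-WT replicate 3 or 4 or P28 replicate 1, 2, 3 or 4. At P4M against Fgfr3-WT the list had 4 genes higher and 1 lower, beside 22.3% and 23.6% of all genes. With a clone left out these counts were 4 to 6 and 1 to 2. Tnfrsf11b had 195 to 928 CPM in Fgfr3-WT and 8.07 to 68.4 CPM in the 9 cKO clones. Its ligand gene Tnfsf11, not tested, had no count in Fgfr3-WT and at most 1.46 CPM elsewhere.

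Dmp1 and Mepe sit in a cluster of genes for acidic matrix proteins, with Sparcl1, Dspp, Ibsp and Spp1, over 362 kb of chromosome 5. Its genes differed widely in level. Dspp, the dentin gene just upstream of Dmp1, had no count in Fgfr3-WT and P28 and 3, 2, 0 and 1 counts in P4M replicates 1 to 4, at or under the floor of 3 counts but in the same clones in which Dmp1 was high. Ibsp, 85.1 kb downstream of Dmp1, had 733, 1120, 49.7 and 282 CPM at P4M and 1.53, 0.55, 0.795, 445 and 147 CPM at P28, and in Fgfr3-WT it was detected only in replicate 5, at 92.8 CPM. Like Dmp1 it was lowest in replicate 3 among the P4M clones, and its log2 CPM had a Pearson r of 0.71 with that of Dmp1 over the 14 clones, but it was also high in P28 replicates 4 and 5. Ibsp did not pass in any comparison with all clones in the fit (P4M against P28 2.20, SE 2.23, adjusted p = 0.574; P4M against Fgfr3-WT 4.88, SE 2.47, adjusted p = 0.123, edgeR), but without Fgfr3-WT replicate 5 it was called higher than in Fgfr3-WT at both ages. Mepe, 13.9 kb beyond it, stayed at 0 in 12 of 14 clones. Spp1 (osteopontin) was abundant everywhere and lower in P28 (-2.34, SE 0.352, adjusted p = 0.000318, edgeR) and P4M (-1.34, SE 0.367, adjusted p = 0.00959, edgeR) than in Fgfr3-WT. Sparcl1 was likewise lower at both ages, at 8.49 to 218 CPM in Fgfr3-WT, 0.454 to 50.7 CPM at P28, which overlaps Fgfr3-WT, and 0.208 to 1.95 CPM at P4M. These 2 lower calls of 3 tested stood beside 19.7% of all genes at P28 and 23.6% at P4M, and at P28 a single one was left without Fgfr3-WT replicate 1, 2 or 5 or P28 replicate 1, 3 or 5. Of the 3 neighbours tested with edgeR, none was called in P4M against P28, beside 3.34% of all genes higher and 3.88% lower. At an unadjusted p under 0.05, 1 was higher and 1 lower. DESeq2 called 1 lower, as did edgeR without Fgfr3-WT replicate 3.

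**Figure D4:**
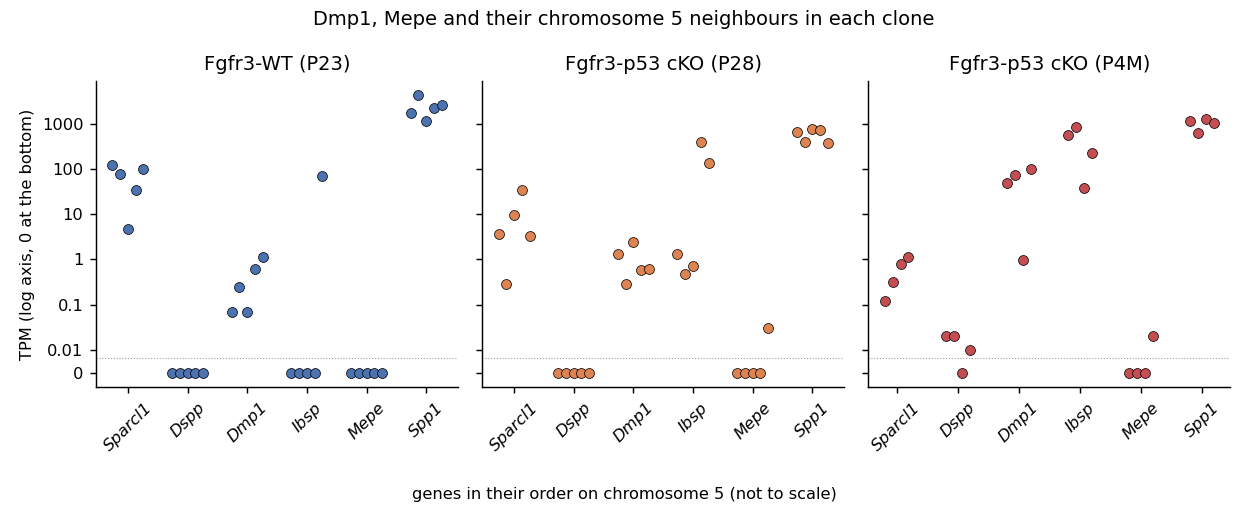
TPM in each clone (points) of the 6 genes of the chromosome 5 cluster, drawn in genomic order but not to scale, on a log axis with 0 at the bottom. Spp1 was high in all groups and Dspp and Mepe stayed at or near 0, while Dmp1 rose in 3 of the 4 P4M clones.

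Of the FGF23 and phosphate axis, 14 genes were in the table and 12 were tested. In P4M against P28, 2 were higher (3.34% of all genes) and none was lower by edgeR, also at an unadjusted p under 0.05 and by DESeq2 (3.88% of all genes). Those higher were Ank, which exports ATP and pyrophosphate (log2 fold change 2.08, SE 0.43, adjusted p = 0.0152, edgeR), and the phosphate transporter gene Slc20a1 (1.62, SE 0.421, adjusted p = 0.0357, edgeR). Slc20a1 had been lower at P28 than in Fgfr3-WT (-1.44, adjusted p = 0.0126, edgeR), and its value at P4M against Fgfr3-WT was 0.17 (adjusted p = 0.759, edgeR). The count of 2 became 4 without Fgfr3-WT replicate 1 or 3 and 1 without P28 replicate 1 or 3 or P4M replicate 1, 3 or 4. Against Fgfr3-WT, 5 were lower at P28 (19.7% of all genes) and none higher (19.2%). There, 2 were higher at an unadjusted p under 0.05, 2 by DESeq2 and 1 by edgeR without Fgfr3-WT replicate 5. At P4M, 4 were lower (23.6%) and 3 higher (22.3%). The 4 became 2 when any single P4M clone was left out. Enpp1, the pyrophosphate-making enzyme, fell by 3.07 at P28 and by 3.30 at P4M on the log2 scale, from 99.2 to 578 CPM down to 9.86 to 83.2 CPM over the cKO clones. Furin, a protease that cleaves FGF23, and Fgfr3, the receptor gene after which the Cre line is named, were lower at both ages. Galnt3, which glycosylates FGF23 and shields it from that cleavage, was higher in P4M than in Fgfr3-WT (1.86, SE 0.635, adjusted p = 0.0286, edgeR), with 86.1, 100, 33.8 and 39.9 CPM. Fgfr1 and the parathyroid hormone receptor gene Pth1r were called in that comparison as well. These 3 of 12, beside 22.3% of all genes, became 0 without P4M replicate 2 and 1 without P4M replicate 1. Kl, the co-receptor for FGF23, was at most 0.0717 CPM in all clones. Over the 12 genes the median log2 fold change relative to Fgfr3-WT was -0.49 at P28 and 0.11 at P4M, and that of P4M relative to P28 was 0.12.

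Of the receptors of sclerostin and regulators of Sost, 8 of 9 were tested. Set against Fgfr3-WT, 6 were higher at P28, where 19.2% of all genes were, and 5 at P4M, where 22.3% were. With a clone left out these counts were 4 to 7 and 5 to 6. None was lower by edgeR (19.7% and 23.6% of all genes), with 1 lower at an unadjusted p under 0.05 at each age and 1 called lower by DESeq2 at P4M. By edgeR, 1 was called lower at both ages without Fgfr3-WT replicate 1 or 3, P28 replicate 1 or P4M replicate 4, and at P4M also without P28 replicate 4 or 5. Lrp4, which presents sclerostin to the WNT co-receptors, was 1.34 to 13.1 CPM in Fgfr3-WT, 17.7 to 67.5 CPM at P28 and 61.5 to 233 CPM at P4M (P4M against Fgfr3-WT 4.70, SE 0.653, adjusted p = 0.000152, edgeR). Mef2c, the factor that acts on the distal enhancer of Sost, had 136, 228, 21.5 and 133 CPM at P4M and 20.4 to 77.7 CPM at P28, so that it too was low in replicate 3; it was called against Fgfr3-WT (3.21, SE 0.63, adjusted p = 0.00134, edgeR) and not against P28. Hdac4, a repressor of MEF2 factors, was higher in P4M than in P28 (1.01, SE 0.191, adjusted p = 0.0111, edgeR), and the co-receptor gene Lrp6 was lower (-1.57, SE 0.338, adjusted p = 0.0174, edgeR), a call that was lost without P4M replicate 1, 2 or 4. The list had 1 to 3 genes higher in that comparison when a clone was left out, beside 3.34% of all genes higher and 3.88% lower, with 3 without P28 replicate 5 or P4M replicate 3 and 2 without Fgfr3-WT replicate 1, 4 or 5. Sostdc1, a relative of Sost, was at or below 0.0382 CPM.

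Partners of podoplanin had smaller fitted changes than Pdpn. Of the 6 tested, Cd44 and Rdx were higher in P28, and Cd44, Rdx, Msn and Lgals8 in P4M, than in Fgfr3-WT, beside 19.2% and 22.3% of all genes. None was called between P4M and P28 by edgeR, beside 3.34% of all genes higher and 3.88% lower, with 2 higher at an unadjusted p under 0.05, 1 called higher by DESeq2 and 1 by edgeR without Fgfr3-WT replicate 1. Msn came nearest (0.66, SE 0.198, adjusted p = 0.0584, edgeR), with 757 to 1080 CPM at P4M and 498 to 669 CPM at P28. Cd44, which binds podoplanin at the membrane, gained 1.29 (SE 0.349, adjusted p = 0.0106) at P28 and 1.60 (SE 0.366, adjusted p = 0.00345, edgeR) at P4M on the log2 scale. The gains of radixin and moesin, which tie its short tail to actin, were at most 0.78. Cd9, a tetraspanin, had the opposite sign, at -0.81 (adjusted p = 0.0654, edgeR) at P28 and -0.87 (adjusted p = 0.0569, edgeR) at P4M. With the cKO groups averaged it was called lower (-0.84, SE 0.282, adjusted p = 0.0246, edgeR). That call was lost, for instance, without Fgfr3-WT replicate 1. In turn, 1 partner was called lower at P28 without Fgfr3-WT replicate 3, and 1 at P4M without Fgfr3-WT replicate 2. Clec1b, the platelet receptor of podoplanin, was nearly absent, at most 0.0717 CPM.

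**Figure D5:**
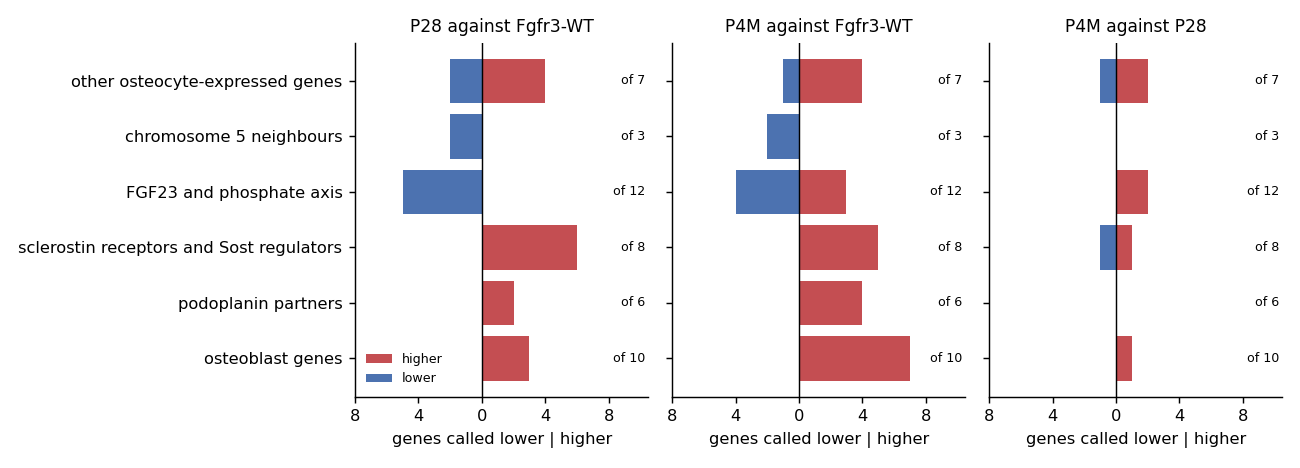
Number of genes called higher (right) and lower (left) at an FDR of 0.05 in 6 lists related to the osteocyte genes, with the number tested at the right margin. Of 46 genes, 6 were called higher and 2 lower between P4M and P28, beside 3.34% and 3.88% of all genes, and more were called against Fgfr3-WT, as among all genes.

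Markers of other cell types also differed between the groups, some lower and some higher in the cKO clones. The 6 chondrocyte markers were all lower in P4M than in Fgfr3-WT, beside 23.6% of all genes, with summed levels of 222 to 5800 TPM in Fgfr3-WT, 73.6 to 713 TPM at P28 and 9.79 to 17.5 TPM at P4M, Col2a1 being the most abundant in 4 of the 5 Fgfr3-WT clones. In P4M replicate 3, where Dmp1 was low, that sum was 11.7 TPM and Col2a1 was 3.49 CPM. Lepr, a marker of reticular stromal cells, was 62.6, 24.5, 0.276 and 126 CPM at P4M, low in the same replicate 3. It was higher than in Fgfr3-WT at P4M (9.36, SE 1.60, adjusted p = 0.000547, edgeR) and at P28 (6.38, adjusted p = 0.00435, edgeR). No other gene of that list was called in any comparison. Cxcl12 was 0 to 221 CPM in Fgfr3-WT, 317 to 520 CPM at P28, without overlap, and 183, 106, 100 and 376 CPM at P4M, with fitted values over Fgfr3-WT of 2.99 (adjusted p = 0.121, edgeR) and 1.92 (adjusted p = 0.299, edgeR). Pparg was 2.38 to 49.9 CPM in Fgfr3-WT, 7.98 to 8.98 CPM at P4M and 12.6 to 46.8 CPM at P28, and Adipoq, not tested, was at most 0.0805 CPM. Of the haematopoietic markers, Ptprc was at most 0.154 CPM and Adgre1 at most 0.086 CPM, and neither was tested. Cd68 and Lyz2, the 2 tested, were lower in both cKO groups, beside 19.7% of all genes lower at P28 and 23.6% at P4M. The part of these differences in the osteocyte gene values was not tested. In bulk clones, fewer cells of a kind and less RNA per cell cannot be told apart.

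Over the 14 clones, log2 CPM of Dmp1 and Phex had a Pearson r of 0.88, and Pdpn had 0.65 with Dmp1 and 0.72 with Phex. Of 12072 genes whose log2 CPM averaged 1 or more, those most like Dmp1 were Slk (r = 0.903), Trim8 (0.891) and Pard6g (0.889), and those most like Phex were Rap1b (0.919), Gm5491 (0.915) and Qk (0.913). Slk had 158, 186, 84.5 and 226 CPM at P4M and 86.3 to 97.1 CPM in all other clones, so it repeated the division of the P4M clones with a far smaller rise. The genes most like Pdpn were S100a10 (0.942), Stk24 (0.941) and Bmp2k (0.936), and S100a10 was 53.3 to 108 CPM in Fgfr3-WT and 113 to 280 CPM in the cKO clones. The clones share groups, and the numbers in their titles follow the genotype, which enters every r, and ranks in place of values kept none of the 3 named genes for Dmp1 and Phex and 1 for Pdpn.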

How the data were processed

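Bulk RNA-seq was analysed from tables the authors deposited for 14 clones. By the methods, cDNA was made with SMART-Seq v4 and sequenced as single-end reads, aligned to mm10 with TopHat and Bowtie2 and counted with HTSeq as non-ambiguous reads. The deposited counts are whole numbers without normalization. The TPM values were made by the authors and sum to the same total in each clone; they served to compare genes and as an alternative. Other deposited tables were not used. Genes passing filterByExpr (17358) were tested with edgeR 4.0.16 in R 4.3.3 (TMM, robust quasi-likelihood fit of all 14 clones by group, Benjamini-Hochberg, FDR 0.05). SE is the log2 fold change divided by the root of F, and 95% intervals are 1.96 SE on either side. CPM use TMM-scaled totals. Genes most alike were ranked by Pearson r of log2 CPM (prior count 2). Ratios of summed counts carry exact binomial intervals (scipy 1.17.1, Python 3.11.15). No libraries were duplicates: the lowest chi-square per gene between replicates was 66.6. On simulated data, 195 of 17563 tested genes were changed, in P4M alone. Of these, 57.6% of 4-fold and 9.38% of 2-fold changes were called in P4M against P28, with 3 false calls among the unchanged genes. The simulation changed far fewer genes than were called in the real data and held no divergent clone. Replicate numbers are running numbers within a group.

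The named genes are the 6 osteocyte genes, Trp53, the genes of related and marker lists, and the 3 genes most like each tested osteocyte gene. Genes and lists were chosen with earlier results of these data known. Alternatives were DESeq2 1.42.0, RLE or no scaling, no filter, at least 10 counts in every clone, only the groups compared, a fit that is not robust, limma 3.58.1 on log2(TPM + 1), and each clone left out. A result for a gene of the osteoblast list is not reported here.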

Additional observations from a re-analysis of the deposited data

Results flagged for a closer look

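In 11 combinations of gene and group with more than 3 counts in some clone, 2 clones lay farther from the others than Dixon's criterion allows, a test that chance alone trips in about 1 of 20 groups. Sost in P4M replicate 4, at 3.96 CPM, was separated from the next clone by 0.879 of the range of the group, and it held 211 of the 242 counts. Pdpn in Fgfr3-WT replicate 4, at 0.853 CPM, was separated by 0.962 of the range, with 30 counts against at most 1 in the other Fgfr3-WT clones. The low value of P4M replicate 3 for Dmp1 and Phex did not meet the criterion.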

How the results depend on the processing

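No paired analysis was possible because the replicate numbers only count the clones of a group. The calls of Dmp1, Phex and Pdpn kept their direction and side of the threshold under other scaling, no filter, only the groups compared, a fit that is not robust, limma on TPM and DESeq2; with at least 10 counts in every clone none of the 6 genes was left to test. Leaving out single clones, the log2 fold change of P4M against P28 ranged from 3.15 to 4.26 for Phex and from 5.01 to 8.55 for Sost, with the calls lost as given above, and the osteocyte genes called higher numbered 1 to 2. P28 against Fgfr3-WT, never called, ranged from -1.63 to 1.27 for Sost, changing sign without Fgfr3-WT replicate 4. For Fgf23 it ranged from -0.81 to 0.87, and the sign changed without Fgfr3-WT replicate 3 (0.06) or 5 (0.87) or P28 replicate 3 (0.1) or 4 (0.1). Of the 46 genes tested in the 6 related lists together, 6 were higher in P4M than in P28 (3.34% of all genes), against 14 with only the groups compared, 11 by DESeq2 and 4 to 10 with a clone left out; 2 were lower (3.88% of all genes), against 1 without filter and 0 to 3 with a clone left out. For both cKO groups against Fgfr3-WT, 23 were higher, beside 23.1% of all genes (15 to 23 with a clone left out), and 11 lower, beside 25.7% (6 with limma on TPM). Spearman ranks kept 0 of the 3 genes most like Dmp1, 0 for Phex and 1 for Pdpn. The causes were not tested. A count of 3 corresponds to 0.0568 to 0.1168 CPM of the total, which limits Sost, Fgf23 and Mepe.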
